A study of Mus musculus with 8 samples.

Results

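The genes described here are 36 targets of the transcription factor NRF2 and antioxidant enzymes, measured in AML12 mouse hepatocytes with and without irisin. They were chosen by name, with earlier results of these data known, and each is represented by every probe of the array whose accession belongs to it in the RefSeq gene table. They have 45 probes, and 29 of the genes have 1 probe each. All 36 were tested, out of 21612 genes that could be named on the array and 14312 that were tested. AML12 is a line of hepatocytes established from the liver of a mouse that carries a human TGFα transgene under a metallothionein promoter, and every sample of both groups is of this line. The 4 control samples were grown for 24 h in DMEM/F-12 with fetal bovine serum and no irisin, and the 4 irisin samples received 0.5 µg/ml irisin, the peptide cleaved from Fndc5, for the same 24 h in the same medium. RNA of each sample was labelled with Cy3 and hybridized to its own single-colour Agilent array. The labels do not say whether replicates came from separate cultures, so the p-values measure the spread between these samples, which may be technical.

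NRF2, the product of Nfe2l2, is a transcription factor that KEAP1 binds in the cytosol and hands to the proteasome. Electrophiles and oxidants modify cysteines of KEAP1, so that NRF2 escapes, enters the nucleus, pairs with small MAF proteins and binds antioxidant response elements near genes for glutathione synthesis, the thioredoxin system, NADPH supply, heme breakdown and iron storage. In liver these genes protect hepatocytes from drugs and their reactive metabolites. Metallothioneins, which bind zinc, copper and cadmium, are driven mainly by the metal-sensing factor MTF1 through metal response elements.

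Levels are given as the log2 signal of a probe minus the array's 75th percentile, so a level is read only against the same probe on the other arrays. A change is the irisin mean minus the control mean on that scale. Where a gene had several probes, the brightest tested one stood for it. Changes were tested with limma across 24093 probes, with Benjamini-Hochberg adjustment over all of them. Calls required a 1.5-fold change or more and an adjusted p under 0.05. The verbs rose and fell are used for an adjusted p under 0.05, whether or not the change reached 1.5-fold.

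Before scaling, the 75th percentile averaged 472 ± 70.1 (SD, n = 4) in control and 783 ± 71.6 (SD, n = 4) after irisin. Between 59.5% and 64.1% of the probes of an array were well above background, and no spot was saturated. All 4 control arrays lay on slide 1 and all 4 irisin arrays on slide 2, so the treatment cannot be told apart from the slide or its scan for any value given here. The changes moved with brightness. Across all genes the median change was -0.06, and it was -0.57 in the dimmest of 10 equal bins of signal and -0.15 in the brightest bin. Of the 36 genes, 21 lay in that brightest bin, and 19 of those 21 had a change below 0. Their median change was -0.16, beside the -0.15 of all genes in the bin. The part of brightness in the changes below was not tested, and values from 2 normalizations that even it out, quantile and cyclic loess, are given for the genes that passed and for several others. All 12 hepatocyte marker genes, Alb and Hnf4a among them, were well above background on all 8 arrays. The log2 of their summed level was 8.90 to 9.05 in control and 8.60 to 8.87 after irisin, and Krt18 and Trf fell among them by 0.47 and 0.39, which became -0.04 and -0.02 under quantile normalization and passed neither there nor under cyclic loess; the part of this in the changes below was not tested. Of the 6 fibroblast and stellate markers, Col3a1, Des, Lrat, Pdgfrb and Dcn were well above background on 0 of 8 arrays. Col1a1 was well above background on all 8, at a mean of -5.21 in control and -5.20 after irisin, and did not pass.

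None of the 36 genes was called higher after irisin, against 0.531% of all genes tested. With limma 3 of the 36 were above control at an unadjusted p under 0.05, against 5.94% of all genes, and the methods' test, an analysis of variance per probe, also called 0. Fth1 was the 1 gene called lower, against 10.2% of all genes tested. That share differed with brightness: it was 48.2% in the dimmest bin of signal and 1.12% in the brightest, which holds 21 of the 36, Fth1 among them. At an unadjusted p under 0.05, 11 of the 36 were below control, against 23.6% of all genes. By the adjusted p alone 6 of the 36 fell, namely Fth1, Ftl1, Mt1, Mt2, Txn1 and Prdx2, against 17.9% of all genes, and 0 rose, against 2.65%. The groups did not overlap for 3 genes with irisin above control, against 4.16% of all genes, and for 7 with irisin below, against 19.7%. In bulk RNA, fewer cells expressing a gene and less RNA per cell cannot be told apart. The median change of the 36 was -0.10, beside -0.06 for all genes tested, with 11 above 0 and 25 below. Among all 14312 genes tested, 5152 were above 0 and 9160 below.

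**Figure D1:**
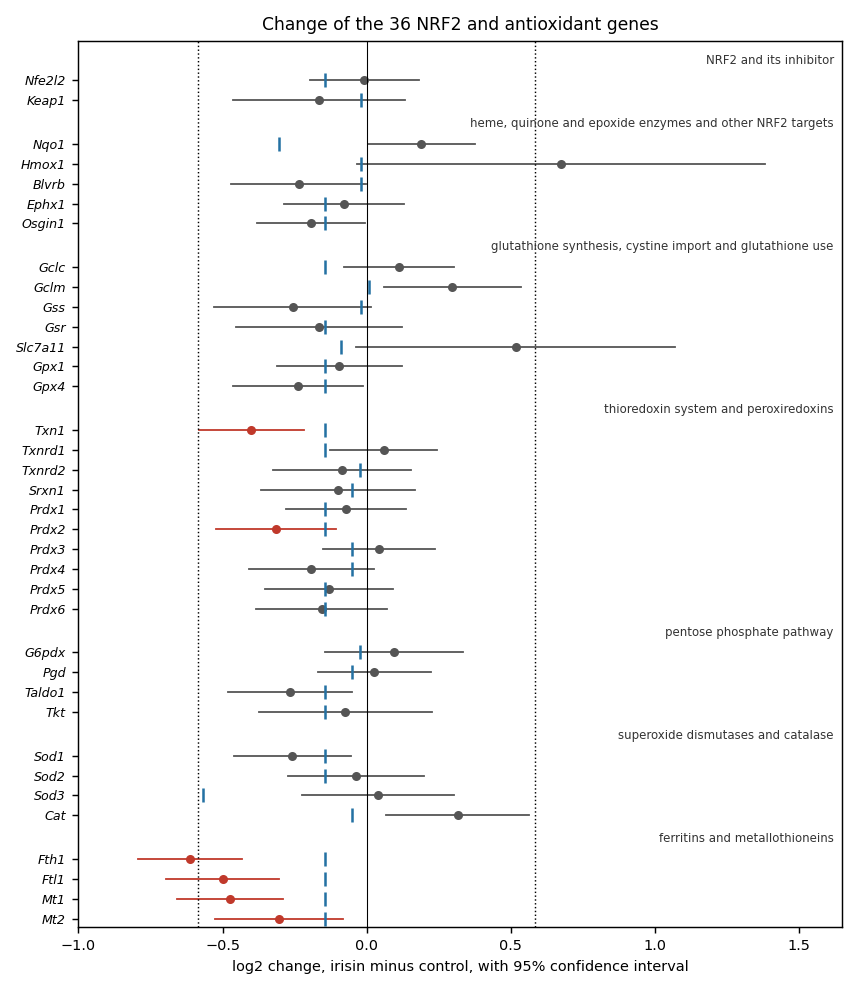
The horizontal axis is the log2 change, irisin minus control, and each point is 1 of the 36 genes with its 95% confidence interval, grouped by role. Red marks an adjusted p under 0.05, the dotted lines mark 1.5-fold, and each blue tick is the median change of all genes of like brightness. The points of the ferritins and metallothioneins lie between -0.61 and -0.30, left of their ticks at -0.15, under scaling to the 75th percentile; with no scaling all 4 were above 0. The interval of Hmox1 is the widest, from -0.03 to 1.38.

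The sensing pair differed little between the groups. Nfe2l2 measured 4.54, 4.41, 4.64 and 4.53 in control replicates 1 to 4 and 4.46, 4.44, 4.63 and 4.55 in irisin replicates 1 to 4. The 2 groups overlapped almost fully, and the change was -0.01 with a 95% confidence interval of -0.20 to 0.18 (limma, adjusted p = 0.961). Keap1, the adaptor that brings NRF2 to the CUL3 ubiquitin ligase, measured 1.39, 1.503, 1.31 and 1.68 in control and 1.12, 1.64, 1.08 and 1.38 after irisin. Irisin replicates 1 and 3 were below every control and irisin replicate 2 was among the highest, and the change of -0.17 ± 0.13 (SE) had an adjusted p of 0.444. NRF2 is regulated mainly as a protein, and the arrays measured its transcript only.

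Upstream sequences of these genes are shown because antioxidant and metal response elements were named above. Whether a match bears on any change was not tested. RefSeq start sites on GRCm38.p6 gave windows of 250 bases before and 50 after the start for 31 of the 36 genes, 39 windows in all. The letter patterns searched, on both strands, were the antioxidant response element core TGACNNNGC and the metal response element core TGCACNC or TGCGCNC. The antioxidant core was found in the windows of 9 of the genes, G6pdx, Gclm, Mt2, Nfe2l2, Pgd, Prdx1, Sod1, Srxn1 and Txnrd1, against 14% of all genes with a window and 12.4% of all 32851 windows. Its capitals mark the match in these stretches, written 5′ to 3′ on the strand of the gene; where the capitals read as the reverse complement, the match was on the opposite strand.
Gclm, chr3:122245403-122245451, forward strand: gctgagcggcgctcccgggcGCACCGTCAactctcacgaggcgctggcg
Prdx1, chr4:116685446-116685494, forward strand: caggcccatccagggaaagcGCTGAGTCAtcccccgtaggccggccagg
Txnrd1, chr10:82859094-82859142, forward strand: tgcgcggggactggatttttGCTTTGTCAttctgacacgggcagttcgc
Sod1, chr16:90220686-90220734, forward strand: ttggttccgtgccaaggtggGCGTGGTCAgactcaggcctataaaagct
Nfe2l2, chr2:75704875-75704913, reverse strand: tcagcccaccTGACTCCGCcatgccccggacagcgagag
The metal core was found in the windows of 8 genes, against 28.2% of all genes with a window and 25.7% of all windows, with 3 matches for Mt1 and 4 for Mt2. The 250 bases before each metallothionein start follow, with the metal core in capitals. Of those matches, 1 for Mt1 and 3 for Mt2 lie before the start and are shown.
Mt1 promoter, chr8:94178839-94179088, forward strand: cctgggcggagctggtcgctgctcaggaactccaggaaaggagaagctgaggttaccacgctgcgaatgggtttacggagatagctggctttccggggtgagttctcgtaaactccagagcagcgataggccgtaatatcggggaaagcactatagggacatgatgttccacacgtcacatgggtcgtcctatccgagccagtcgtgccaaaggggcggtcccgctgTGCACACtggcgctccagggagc
Mt2 promoter, chr8:94172368-94172617, forward strand: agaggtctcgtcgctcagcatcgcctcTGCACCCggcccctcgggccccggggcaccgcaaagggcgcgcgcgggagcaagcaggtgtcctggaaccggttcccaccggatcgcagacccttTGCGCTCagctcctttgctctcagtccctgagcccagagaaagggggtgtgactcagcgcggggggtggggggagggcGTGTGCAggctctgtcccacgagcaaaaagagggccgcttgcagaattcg
In Mt2 the antioxidant core tgactcagc also stands in lower case before the third capital run. A match to these letters is a description of sequence only, and genes without one, Fth1, Ftl1 and Nqo1 among them, may hold elements outside these windows.

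The ferritins and metallothioneins were the role in which every gene fell. Fth1 encodes the heavy ferritin chain, which oxidizes iron for storage. It measured 7.21, 7.10, 7.10 and 7.06 in control and 6.53, 6.62, 6.43 and 6.42 after irisin. Every irisin array lay below every control array, at 0.653 of the control level, with a log2 change of -0.61 ± 0.08 (SE) and an adjusted p of 0.000387 by limma. Without control replicate 1 the change was -0.58, just under 1.5-fold, and the gene was then no longer called.

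Ftl1 encodes the light ferritin chain, which helps form the iron core. Its brightest probe measured 6.94, 6.81, 6.76 and 6.82 in control and 6.38, 6.49, 6.24 and 6.23 after irisin. The groups did not overlap, and the change was -0.50 ± 0.09 (SE, limma adjusted p = 0.00196). A dimmer Ftl1 probe disagreed in size: it gave 6.03, 6.03, 6.12 and 6.03 in control and 5.83, 6.10, 5.88 and 5.98 after irisin, a change of -0.11 with an adjusted p of 0.432. It disagreed in sign as well under quantile normalization (0.18) and cyclic loess (0.09), where it did not pass. The brightest probe was at -0.13 and -0.27 there. Ferritin genes have many near-identical pseudogene copies, and whether these probes also bind their transcripts was not tested.

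Mt1 measured 6.80, 6.62, 6.73 and 6.66 in control and 6.24, 6.35, 6.16 and 6.18 after irisin. The lowest control stood above the highest irisin array, and the change was -0.47 ± 0.08 (SE, limma adjusted p = 0.00179). Mt2 measured 6.79, 6.57, 6.63 and 6.66 in control and 6.24, 6.56, 6.20 and 6.44 after irisin. Its groups were separated by less than the spread within the irisin arrays, with a change of -0.30 ± 0.10 (SE) and an adjusted p of 0.0495. Leaving out 1 array gave Mt2 an adjusted p from 0.0133, without irisin replicate 2, to 0.138, without irisin replicate 3, and it passed in 1 of 8 such fits. Fth1, Ftl1 and Mt1 passed in all 8.

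All 4 probes lie in the brightest bin of signal, and their changes depended on the scaling. Under quantile normalization the changes were -0.24 for Fth1 (adjusted p = 0.0319), -0.13 for Ftl1, -0.11 for Mt1 and 0.05 for Mt2, and only Fth1 passed. Under cyclic loess they were -0.37, -0.27, -0.25 and -0.08 in the same order, and Fth1, Ftl1 and Mt1 passed with adjusted p of 0.00853, 0.0354 and 0.0276. On unscaled arrays the median gene was at 0.67 and the same 4 changes were 0.12, 0.24, 0.27 and 0.43. They were thus above 0 there, and below the median gene.

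**Figure D2:**
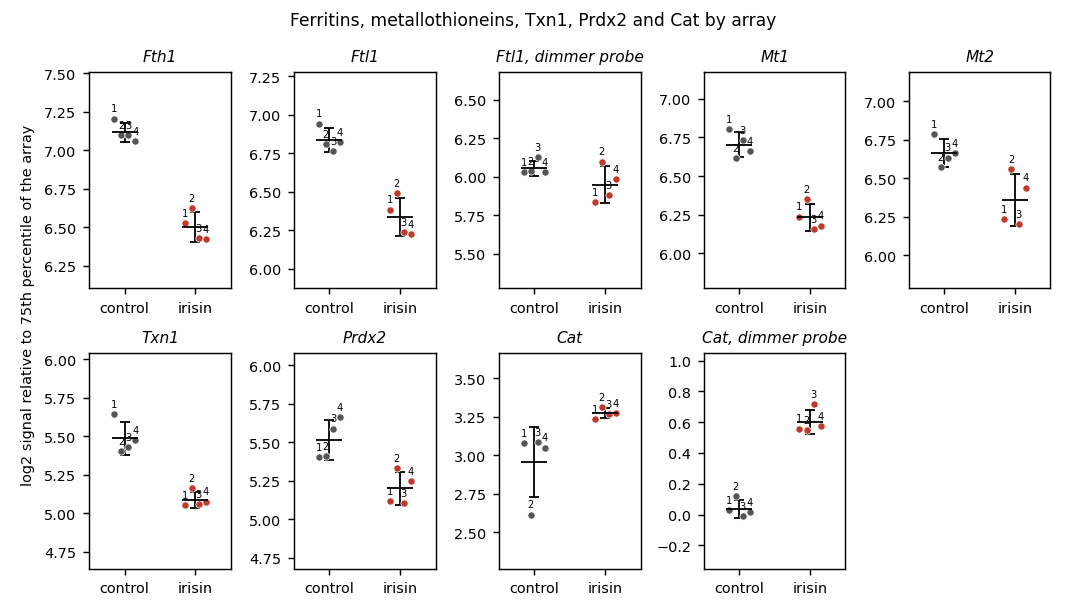
Each panel is 1 probe, the vertical axis is the log2 signal minus the array's 75th percentile (range differs by panel), and each point is 1 array with its replicate number. Horizontal bars are the mean and error bars 1 SD of 4 arrays. The groups are apart for Fth1, Ftl1, Mt1, Mt2, Txn1 and Prdx2, with irisin lower, and for both Cat probes, with irisin higher; they overlap for the dimmer Ftl1 probe. With no scaling the first 6 are all above 0.

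In the thioredoxin system and the peroxiredoxins 2 of 10 genes fell, against 17.9% of all genes tested, and 0 rose, against 2.65%. The same shares stand beside the counts of the roles that follow. The median change was -0.12, beside -0.06 for all genes. The 10 genes lie in bins 8 to 10 of signal, counted from the dimmest. All genes of those bins had medians of -0.02, -0.05 and -0.15. Txn1, cytosolic thioredoxin, reduces disulfides in proteins and is itself reduced by TXNRD1. It measured 5.64, 5.41, 5.43 and 5.48 in control and 5.05, 5.16, 5.06 and 5.08 after irisin. No irisin array reached the lowest control, and the change was -0.40 ± 0.08 (SE, limma adjusted p = 0.00448). It was -0.20 (adjusted p = 0.0559) under quantile normalization and -0.23 (adjusted p = 0.0371) under cyclic loess. Unscaled arrays gave 0.34.

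Prdx2, a cytosolic peroxiredoxin that breaks down hydrogen peroxide with electrons from thioredoxin, measured 5.40, 5.41, 5.59 and 5.66 in control and 5.12, 5.33, 5.11 and 5.25 after irisin. Control replicates 1 and 2 stood just above irisin replicate 2. The change was -0.32 ± 0.09 (SE, limma adjusted p = 0.0324), it did not pass under quantile normalization (-0.11) or cyclic loess (-0.14), and it passed in 3 of the 8 fits with 1 array left out.

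The NRF2 targets Txnrd1 and Srxn1 did not pass. Txnrd1, the cytosolic thioredoxin reductase, measured 4.12, 4.00, 4.01 and 4.12 in control and 4.03, 4.26, 4.05 and 4.14 after irisin. The groups overlapped, with a change of 0.06 and a 95% confidence interval of -0.13 to 0.24. Srxn1, sulfiredoxin, which repairs overoxidized peroxiredoxins, measured 3.98, 3.84, 3.75 and 3.81 in control and 3.48, 4.05, 3.66 and 3.78 after irisin. The irisin arrays spread wider than the controls and enclosed them, with a change of -0.10 and a 95% confidence interval of -0.37 to 0.17.

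The other members of this role changed by -0.19 to 0.04, and none passed. Mitochondrial Txnrd2 was at -0.09 and mitochondrial Prdx3 at 0.04. Prdx4 of the endoplasmic reticulum was at -0.19 and Prdx5, found in several compartments, at -0.13. Prdx1, a cytosolic peroxiredoxin and NRF2 target, was at -0.07 on its brightest probe and 0.10 on a dimmer one, and under quantile normalization its brightest probe was at 0.26 (adjusted p = 0.0161). Prdx6, which uses glutathione, had 4 probes with changes of -0.16, -0.18, -0.20 and -0.27, and the first rests on 3 irisin arrays because the spot of irisin replicate 4 was marked as an outlier.

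Among the inducible genes of heme, quinone and epoxide handling none of 5 rose or fell. Hmox1, heme oxygenase 1, splits heme into biliverdin, iron and carbon monoxide and is among the most inducible NRF2 targets. It measured 0.70, 0.36, 0.42 and 0.78 in control and 0.21, 2.08, 1.54 and 1.11 after irisin. Irisin replicates 2, 3 and 4 were above every control, and irisin replicate 1 was below every control. The mean change was 0.67 ± 0.32 (SE), the largest upward change of the 36, with a 95% confidence interval of -0.03 to 1.38 and an adjusted p of 0.166 (limma). Without irisin replicate 1 it was 1.02 with an adjusted p of 0.00655, and with each other array left out it did not pass.

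A dimmer Hmox1 probe gave -4.25, -4.19, -4.17 and -4.06 in control and -4.39, -3.41, -3.73 and -4.07 after irisin. Irisin replicates 2 and 3 were again highest and irisin replicate 1 lowest. The 2 probes of Hmox1 thus ranked the irisin arrays alike, while the dimmer one gave a change of 0.27 (adjusted p = 0.341). With normexp background correction the brighter probe was at 0.64 (adjusted p = 0.0358) and the dimmer at -0.35 (adjusted p = 0.0118), so their signs then differed. Under normexp the median change of all genes was -0.63, -0.55 and -0.35 in the 3 dimmest bins of signal. The part of this trend in the dimmer probe was not tested.

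Nqo1, the quinone reductase, is often used as a readout of NRF2. It measured -4.20, -4.33, -4.31 and -4.44 in control and -4.10, -4.19, -4.20 and -4.04 after irisin. Its groups did not overlap, though irisin replicate 3 and control replicate 1 were almost level, and the change was 0.19 ± 0.08 (SE, limma adjusted p = 0.139). The exact two-sided permutation test gave p = 0.0286, the smallest that 70 assignments allow. That value follows from the lack of overlap and was the same for every other of these genes without overlap, so it adds nothing to it. The probe lies in the next to dimmest bin of signal, where the median change was -0.30. The direction of Nqo1 turned with the processing: it was 0.41 (adjusted p = 0.0101) under quantile normalization, 0.44 (adjusted p = 0.00627) under cyclic loess and -0.32 (adjusted p = 0.0104) with normexp. The median change of its bin in the same order was -0.0005, 0.03 and -0.55, below Nqo1 in each.

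Blvrb, biliverdin reductase B, was at -0.24 (adjusted p = 0.140). Ephx1, microsomal epoxide hydrolase, was at -0.08 on its brightest probe and -0.22 on a dimmer one. Osgin1, an oxidative stress response gene, was at -0.19 with no overlap between the groups and an adjusted p of 0.132, and at -0.03 under quantile normalization and -0.05 under cyclic loess.

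In the glutathione role none of 7 genes rose or fell, and the changes ran from -0.26 to 0.52. Gclm, the modifier subunit of glutamate-cysteine ligase, measured -0.21, -0.32, -0.68 and -0.30 in control and -0.14, -0.01, -0.11 and -0.04 after irisin. All 4 irisin arrays were above the highest control, and control replicate 3 was far below the others. The change was 0.30 ± 0.11 (SE, limma adjusted p = 0.0713), and it lay between 0.26 and 0.29 under normexp, quantile normalization and cyclic loess, passing with normexp (adjusted p = 0.0486). Without control replicate 3 it was 0.20.

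Gclc, the catalytic subunit of the same enzyme, measured 4.12, 4.15, 4.01 and 4.22 in control and 4.20, 4.40, 4.18 and 4.17 after irisin. Irisin replicate 2 stood apart and the other 3 irisin arrays lay among the controls, with a change of 0.11 and a 95% confidence interval of -0.08 to 0.30. Under cyclic loess it was 0.23 with an adjusted p of 0.0494.

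Slc7a11, the cystine importer xCT, measured -3.23, -3.14, -3.55 and -3.74 in control and -2.66, -3.69, -2.38 and -2.86 after irisin. Irisin replicates 1, 3 and 4 were above every control and irisin replicate 2 was near the lowest control, whereas for Hmox1 the low array was irisin replicate 1. The change was 0.52 ± 0.25 (SE, limma adjusted p = 0.174), and without irisin replicate 2 it was 0.78 with an adjusted p of 0.00703. With normexp it was 0.11, where the median of its bin of signal was -0.35.

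**Figure D3:**
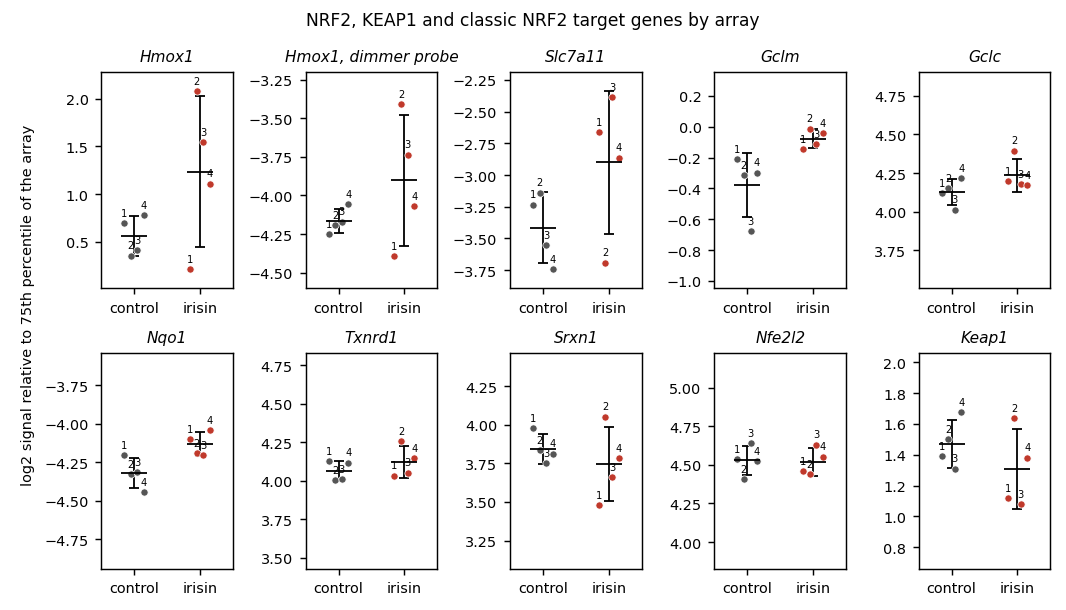
Each panel is 1 probe of NRF2, KEAP1 or a classic target, the vertical axis is the log2 signal minus the array's 75th percentile (range differs by panel), and points, numbers and bars are as for the ferritins. Irisin replicate 1 lies below all controls on both Hmox1 probes while irisin replicate 2 is the low irisin array of Slc7a11, and Gclm and Nqo1 are the panels without overlap. Nqo1 is below 0 with normexp, at -0.32, where the median of its bin of signal is -0.55.

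The rest of the glutathione genes gave values below 0. Gss, which completes glutathione, was at -0.26. Gsr, glutathione reductase, was at -0.16 on its brightest probe and -0.12 on another. Gpx1, the cytosolic glutathione peroxidase, was at -0.09. Gpx4, which reduces lipid peroxides in membranes, was at -0.24 (adjusted p = 0.125). None of these passed, and under quantile normalization Gpx1 was at 0.18, Gsr at 0.10 and Gpx4 at 0.02.

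The 4 genes of the pentose phosphate pathway, which supplies NADPH to both reductases, had no call and a median change of -0.02. The oxidative genes G6pdx and Pgd were at 0.09 and 0.03. The carbon-shuffling genes Taldo1 and Tkt were at -0.27 (adjusted p = 0.0723) and -0.07. G6pdx and Pgd were above 0 in every scaling tried, and Taldo1 was at 0.07 under quantile normalization.

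Of the superoxide dismutases and catalase, none of 4 genes rose or fell on the probe that stood for the gene. Cat, peroxisomal catalase, measured 3.08, 2.62, 3.09 and 3.05 in control and 3.24, 3.31, 3.27 and 3.27 after irisin. All irisin arrays were above all controls, and control replicate 2 was far below the rest. The change was 0.32 ± 0.11 (SE, limma adjusted p = 0.0659), and 0.20 without control replicate 2.

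A dimmer Cat probe measured 0.03, 0.12, -0.01 and 0.02 in control and 0.56, 0.55, 0.72 and 0.58 after irisin. Here control replicate 2 was the highest control, and the gap between the groups was several times the spread within either. This probe rose by 0.56 ± 0.08 (SE, limma adjusted p = 0.000507), at 1.48 times the control, just under the 1.5-fold line. The brighter probe passed under normexp (0.43, adjusted p = 0.00747), quantile normalization (0.36, adjusted p = 0.0327) and cyclic loess (0.40, adjusted p = 0.0240). The dimmer probe stayed between 0.55 and 0.62 under normexp, quantile, cyclic loess and median scaling, and was higher under spike-in and no scaling.

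Sod1, the cytosolic copper-zinc superoxide dismutase, was at -0.26 (adjusted p = 0.067) and at -0.01 under quantile normalization. Mitochondrial Sod2 was at -0.04, with a 95% confidence interval of -0.27 to 0.20. Sod3, the secreted form, was at 0.04 and was well above background on 1 of 4 control arrays and 4 of 4 irisin arrays, so its level is close to the limit of the array. Its change was 0.63 under quantile normalization and -0.58 with normexp. The median of its bin, the dimmest, was -0.06 and -0.63 in the same order.

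**Figure D4:**
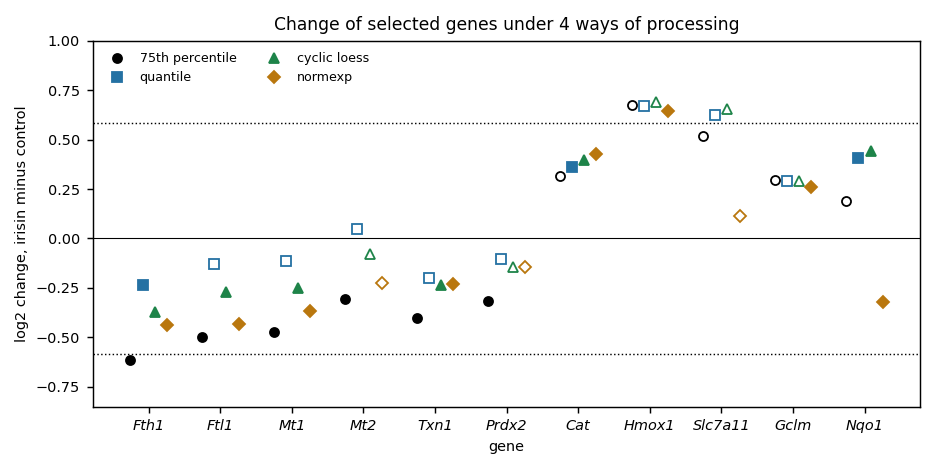
The vertical axis is the log2 change, irisin minus control, of 11 of the genes under scaling to the 75th percentile, quantile normalization, cyclic loess and normexp background correction. Filled symbols have an adjusted p under 0.05, open symbols do not, and dotted lines mark 1.5-fold. Cat and Gclm keep their place across the 4 ways, and the ferritin and metallothionein changes shrink under quantile normalization, where Mt2 is above 0. Nqo1 changes sign with normexp, where the median of its bin of signal is -0.55.

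The irisin arrays kept a similar order across many of these genes, and the controls did so less. Irisin replicate 2 was the highest irisin array for 26 of the 36 genes and irisin replicate 3 the lowest for 18. Among controls, replicate 2 was the lowest for 15 genes and the highest for 2. Control replicate 1 was the highest for 15 and the lowest for 9, and control replicate 3 the highest for 14 and the lowest for 6. Without irisin replicate 2 the median change of the 36 was -0.20, and no median of all genes is given for that fit. The order of the arrays was counted for these 36 genes only, so it cannot be read as particular to them. Before scaling, irisin replicate 2 had the lowest 75th percentile of the irisin arrays, 682 beside 796 to 850. The part of that in this order was not tested.

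Of 73 further pathway genes on the array, 71 were tested, and 0 were called in either direction by limma or by the methods' test, with 7 above and 9 below control at an unadjusted p under 0.05, against 5.94% and 23.6% of all genes. By the adjusted p alone 2 rose, against 2.65% of all genes, and 6 fell, against 17.9%. Txnip, which binds and inhibits thioredoxin, rose by 0.35 (adjusted p = 0.0104), though a dimmer probe of it fell by 0.36. Under quantile normalization and cyclic loess the brighter Txnip probe passed (0.38 and 0.43) and the dimmer did not (0.02 and 0.06). With normexp the brighter was at 0.05 and the dimmer at -0.58. Abcc1, which exports glutathione conjugates, rose by 0.25 (adjusted p = 0.0275). The selenium carrier Selenop fell by 0.47 (adjusted p = 0.000867), and Selenow, another selenoprotein, fell by 0.35 (adjusted p = 0.0492). Mitochondrial glutaredoxin Glrx2 fell by 0.47, the aldehyde dehydrogenase Aldh3a1 fell by 0.43 and the stress-induced Sesn2 fell by 0.39, with adjusted p of 0.00409, 0.00412 and 0.0301. Crebbp, a coactivator of NRF2, fell by 0.36 (adjusted p = 0.0198). Under quantile normalization the brightest probe of Glrx2 (-0.09), Selenop (-0.22) and Selenow (-0.25) did not pass. Under cyclic loess the brightest probe of Glrx2 (-0.23) and Selenow (-0.23) did not. Both dimmer probes of Glrx2 fell, by 0.32 and 0.45. They passed under quantile normalization (-0.32 and -0.37) and under cyclic loess (-0.30 and -0.34). On unscaled arrays all 8 of these genes were above 0.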

How the data were processed

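RNA of 4 control and 4 irisin AML12 samples was measured on 8 Agilent arrays. The authors labelled RNA with Cy3, scanned the slides and ran Agilent Feature Extraction 12.0.3.1, and they deposited signal intensity on a linear scale, background-subtracted and not normalized between arrays. A deposited value table of intensity was checked against the scanner values and deviated by at most 0.0005%.

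The members and gene lists were chosen with earlier results of these data known. Samples were grouped by their labels. Control spots and spots marked as outliers, at most 0.463% of an array, were left out, and the spots of a probe were averaged to 39429 probes. Each array's 75th percentile was subtracted from its log2 signals. Accessions were matched to the RefSeq gene table of GRCm38.p6, which named 72.7% of the probes. In R 4.3.3, lmFit and eBayes of limma 3.58.1 were run on the 24093 probes that every array of 1 or both groups held well above background, with Benjamini-Hochberg adjustment. Python 3.11.15, pandas 2.3.3 and matplotlib 3.10.9 served for tables and plots. An exact two-sided permutation test used 70 assignments. Values by array were given for genes with an adjusted p under 0.05 and for Nfe2l2, Keap1, Nqo1, Hmox1, Gclc, Gclm, Slc7a11, Txnrd1, Srxn1, Mt1, Mt2 and Cat, the last added after its values were seen. Of the other lists, genes with an adjusted p under 0.05 and a few markers were named.

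Alternatives were normexp (offset 50), quantile normalization, cyclic loess, scaling to the median of detected probes or to 8 spike-in probes, no scaling, the value table, robust eBayes with an intensity trend, other filters on dim probes, inclusion of marked spots, the methods' analysis of variance, the replicate number as a block, the mean over probes, other thresholds and each array left out. After seeing the data, spots with non-uniform local background were left out of the normexp fit, because a few of them distorted it on irisin replicates 2 and 4. Simulated arrays of 24093 probes for irisin against control held 200 probes changed by 1 on the log2 scale. Of these, 87.5% were recovered, and 6 unchanged probes were called. The planted change was larger than any of the 36 genes, whose changes ran from -0.61 to 0.67. The share recovered at their size is therefore not given by 87.5%. In the measured arrays treatment and slide coincide, so the 6 calls do not give their rate of false calls. The number of arrays limits the precision. Positions in the scanner files are on another build and were not used.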

Additional observations from a re-analysis of the deposited data

Results flagged for a closer look

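A group of 4 arrays was checked for an array whose gap to its nearest neighbour took up most of the range of the group. Of 73 groups checked over the probes of these genes, 4 stood out, which is near the 1 in 20 that chance flags. Gclc in irisin replicate 2 was at 4.396, while the other irisin arrays lay between 4.172 and 4.198. Gpx1 in irisin replicate 1 was at 5.699, below the other irisin arrays at 5.883 to 5.895. Cat in control replicate 2 was at 2.615 on the brighter probe, below the other controls at 3.05 to 3.085, and this array was the highest control on the dimmer probe of Cat. The dimmer Cat probe in irisin replicate 3 was at 0.7164, above the other irisin arrays at 0.5484 to 0.5752.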

How the results depend on the processing

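The count of genes called lower was 0 in place of 1 with normexp, quantile normalization, cyclic loess, spike-in scaling, no scaling and a 2-fold threshold, and 6 by the adjusted p alone; leaving out 1 array gave 0 (without control replicate 1) to 1. The count called higher was 1 with normexp (Hmox1, 0.64), 1 under quantile normalization (Sod3, 0.63), 20 with no scaling and 4 with spike-in scaling (Hmox1, Slc7a11, Cat, Gclm), and leaving out 1 array gave 0 to 1 (Hmox1 without irisin replicate 1, Slc7a11 without irisin replicate 2). The median change of the 36 genes was 0.0707 under quantile normalization, 0.0401 under cyclic loess, 0.64 with no scaling and 0.43 with spike-in scaling, and -0.198 to -0.0641 with 1 array left out. The median of all genes tested was 0.47 with spike-in scaling and 0.67 on unscaled arrays, where 9562 genes were called higher, so the median of the 36 lay below it in both. It lay above that of all genes under quantile normalization (0.01 for all genes), cyclic loess (0.02) and normexp (-0.06 beside -0.11). Of the pathway genes, 59 were called higher with no scaling, 9 with spike-in scaling and 2 by the adjusted p alone, and 6 were lower by the adjusted p alone and 1 without a filter on dim probes. With no scaling Fth1 was at 0.12, Nfe2l2 at 0.73, Ephx1 at 0.66, Gpx1 at 0.64, Txnrd2 at 0.65, Srxn1 at 0.64, Prdx1 at 0.67, Prdx5 at 0.61, Tkt at 0.66 and Sod2 at 0.70, each of the opposite sign to its value above. The sign of a change differed for 8 of the 36 genes with normexp, 12 under quantile normalization, 10 under cyclic loess, 25 with no scaling and 24 with spike-in scaling. In these cases the cause was not tested. The replicate number as a block gave 0 higher and 1 lower. Same-numbered arrays had correlations of deviations of 0.11, -0.35, -0.13 and 0.17, so the numbers were not taken as a pairing. The slide could not be fitted as a block because each group lay on 1 slide. The other alternatives changed no count by more than 1.5 times. Sod3, near background in the controls, is limited by its signal, and 4 arrays a group limit the rest.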

Other observations

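Enzymes that make oxidants were measured beside the genes that remove them. The 7 tested genes for such enzymes are given here. Nos2, inducible nitric oxide synthase, was called lower with a log2 change of -0.70 (limma, adjusted p = 0.00969), and it lay between -0.64 and -0.58 under normexp, quantile normalization and cyclic loess. With spike-in scaling Nos2 was at -0.17 (adjusted p = 0.583) and on unscaled arrays at 0.04, so the call was lost in both and the sign turned in the latter. Cybb, the catalytic subunit of the phagocyte NADPH oxidase, rose by 0.40 (adjusted p = 0.0168), and it was at -0.07 with normexp. Nox4, Cyba, Xdh, Maoa and Maob did not pass, with changes from -0.30 to 0.15. The macrophage marker Csf1r fell by 0.49, while the other tested macrophage markers, Cd68 (0.01) and Cd14 (-0.12), did not pass. The endothelial markers Pecam1 and Kdr fell by 0.61 and 0.56. Csf1r, Pecam1 and Kdr were above 0 on unscaled arrays, and Pecam1 did not pass under quantile normalization (-0.32) or cyclic loess (-0.28). No array held the endothelial markers Cdh5, Tek and Lyve1 or the macrophage marker Lyz2 well above background. The log2 of the summed level of the 6 endothelial markers was -0.51 to -0.34 in control and -1.27 to -0.77 after irisin, and that of the 6 macrophage markers 3.67 to 3.89 and 3.52 to 3.73. The part of these markers in the changes of the antioxidant genes was not tested.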
